A study of Mus musculus with 6 samples.

Results

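Lin28a, Lin28b, Trim71, L1td1, Esrp1, Igf2bp1 and Igf2bp3 encode RNA-binding regulators of the early embryo, and their transcripts were followed here in undifferentiated mouse iPSCs reprogrammed with or without 3i. All probe sets that the array annotation assigns to 1 of these 7 genes alone were taken, which gave 17 of the 45037 probe sets that are not controls, or 7 of the 18193 genes that could be assigned in this way. The arrays hold 6 clones with 1 array each, 3 (−)/(+) clones (clones 1, 2 and 3), which met 3i only after the colonies were picked, and 3 (+)/(+) clones (clones 4, 5 and 6), which received 3i in the reprogramming and the maintenance phase. Signals are given below in the order of the clones. 3i combines the GSK3 inhibitor CHIR99021, the MEK inhibitor PD184352 and the FGF receptor inhibitor SU5402. All clones came from embryonic fibroblasts of Nanog-GFP-IRES-Puro transgenic mice, had been transduced with retroviruses for Oct3/4, Sox2, Klf4, c-Myc and dsRed, and were kept with serum, LIF and 3i on mitomycin-C-treated SNL feeder cells, a fibroblast line. Each array therefore stands for a single clone, and whether feeder cells were removed before the RNA for the arrays was taken is not given in the sources used here. The array does not separate fewer cells of a type from less RNA per cell.

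Lin28 proteins bind the precursors of let-7 miRNAs, recruit enzymes that add uridines to them and so keep mature let-7 low in pluripotent cells. Let-7 miRNAs in turn repress growth and cell cycle transcripts, among them Trim71 and, in several species, Lin28 itself, so that the Lin28 and let-7 arms oppose each other as cells leave the embryonic state. Esrp1 and the Igf2bp proteins act on mRNA instead, the first as a splicing factor of epithelial cells and the others as proteins that hold and stabilise mRNAs.

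The miRNAs on which the Lin28 proteins act are shown because they define the pathway lists used below, and their levels were not analysed here. Sequences are those of RefSeq on GRCm38.p6, 5′ to 3′. Of 13 mouse loci for a let-7 or miR-98 5′ arm, 12 share the seed, bases 2 to 8, which is in capitals. Let-7j, the remaining locus, has another seed, in capitals too. Loci were picked by a match to the first bases of the shared seed, so agreement in those bases follows from the choice.
mmu-let-7a-5p (Mirlet7a-1, chr13:48538239-48538260, minus strand): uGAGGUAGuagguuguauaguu
mmu-let-7d-5p (Mirlet7d, chr13:48536078-48536099, minus strand): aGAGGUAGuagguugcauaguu
mmu-let-7g-5p (Mirlet7g, chr9:106178846-106178867, plus strand): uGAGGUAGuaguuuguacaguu
mmu-miR-98-5p (Mir98, chrX:151913229-151913250, plus strand): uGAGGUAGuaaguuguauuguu
mmu-let-7j (Mir7j, chr3:140028281-140028304, plus strand): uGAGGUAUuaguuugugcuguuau

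The zinc knuckles of Lin28 recognise a GGAG motif in the loop of the let-7 precursor. The letters GGAG were searched on the RNA strand between the annotated arms, and they were present in 8 of the 11 let-7 and miR-98 hairpins with both arms annotated, against 8.07% of all 644 mouse hairpins with both arms. The let-7g hairpin holds the motif, in capitals, and the let-7b hairpin does not. A match is a description of the letters only.
Mirlet7g hairpin (chr9:106178840-106178927, plus strand): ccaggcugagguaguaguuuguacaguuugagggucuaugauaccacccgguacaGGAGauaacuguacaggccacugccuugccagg
Mirlet7b hairpin (chr15:85707319-85707403, plus strand): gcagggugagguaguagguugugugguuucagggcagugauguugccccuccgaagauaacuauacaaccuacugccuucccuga

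None of these genes passed the test between the groups. Of the 17 probe sets 16, from 6 genes, were bright enough to be tested, and 0 were higher and 0 lower in the (+)/(+) iPSCs at a Benjamini-Hochberg adjusted p under 0.05 from limma, where 3.12% of all 22518 tested probe sets passed (1.35% higher and 1.77% lower). At an unadjusted p under 0.05 there were 3 member probe sets, against 21.2% of all tested. The methods' t-test, an alternative run on the same values, gave 1 at that level and 0 after adjustment. The 16 log2 differences lay between -0.57 and 0.19 with adjusted p between 0.067 and 0.93, and the 95% interval stayed within a 2-fold change either way for 14 of them, against 89.2% of all tested probe sets. Their median was -0.20 against -0.05 over all tested probe sets. Of the 16, 14 were below 0 (57.6% of all tested), but they come from 5 genes, and probe sets of one gene measure the same RNA. When the arrays were scaled to a common median, a scaling that moved the median of all tested probe sets by 0.15 on the log2 scale, 10 of the 16 were below 0 and their median was -0.05. With arrayWeights 10 of the 16 were below 0, and without clone 2 it was 9 of 15, with a median of -0.11. Differences are on the log2(signal + 16) scale, (+)/(+) minus (−)/(+), which understates the change of low signals.

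**Figure D1:**
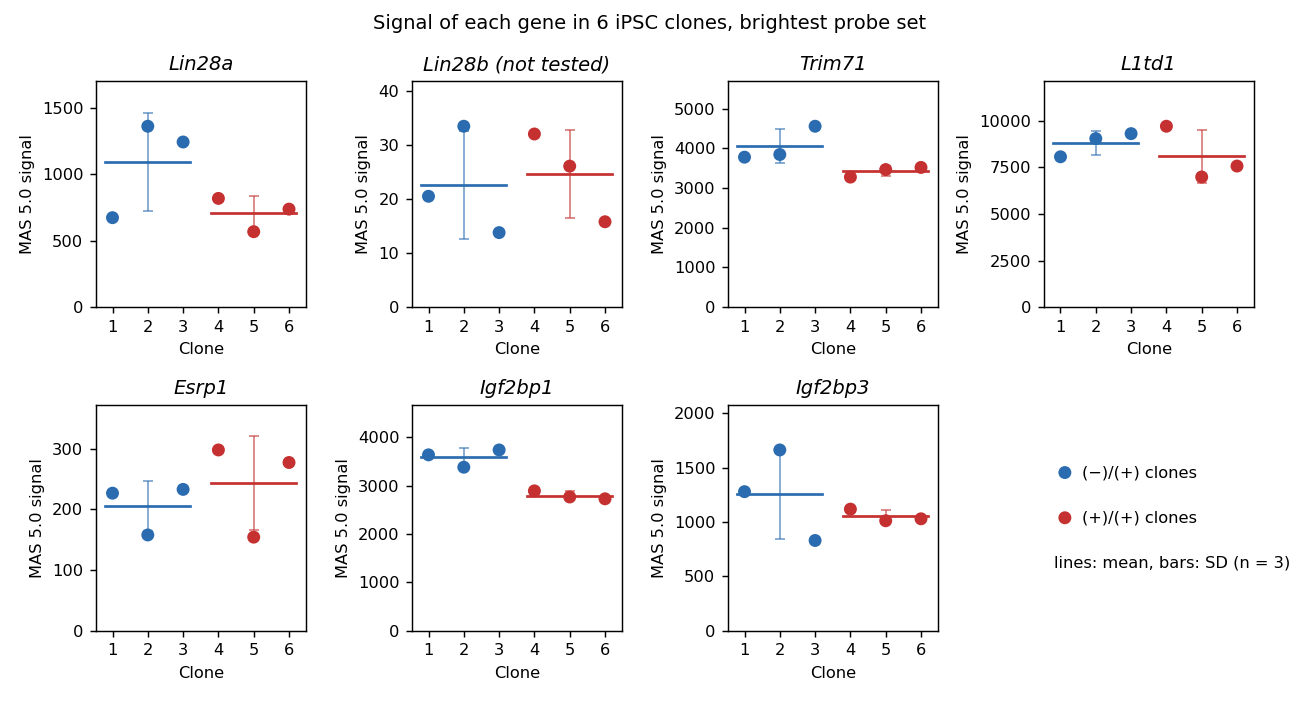
MAS 5.0 signal (y axis, linear, each panel with its own scale from 0) of the brightest probe set of each gene in clones 1 to 6 (x axis), colored blue in the (−)/(+) and red in the (+)/(+) group, a line at each group mean and bars for the SD (n = 3). The groups are apart for Igf2bp1 and Trim71 and overlap for the other 5 genes.

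**Figure D2:**
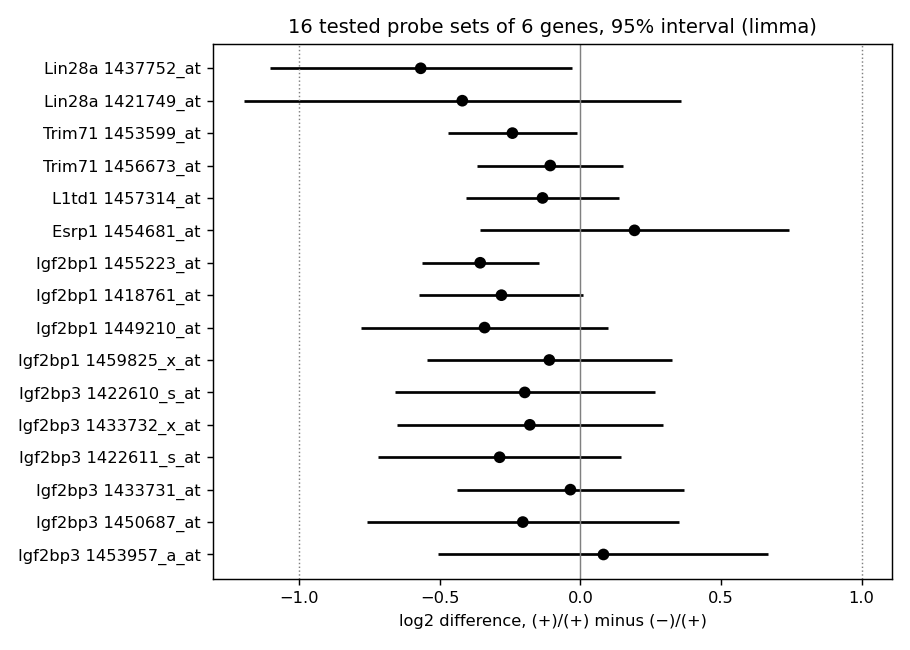
Log2 difference, (+)/(+) minus (−)/(+), of the 16 tested probe sets as points along the x axis, bars giving the 95% interval of limma and dotted lines at a 2-fold change. Only the lower ends of the intervals of the 2 Lin28a probe sets reach beyond the dotted lines, and no probe set passed the adjusted test.

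Lin28a, which blocks let-7 maturation mainly in the cytoplasm, divided the (−)/(+) clones more than it divided the groups. The gene lies on chromosome 4 (chr4:134003330-134019196 in GRCm38.p6). The signal of its brighter probe set, 1437752_at, was 673 in clone 1, 1361 in clone 2 and 1242 in clone 3 of the (−)/(+) group, and 818, 567 and 737 in (+)/(+) clones 4, 5 and 6. Clones 2 and 3 were above all other clones, whereas clone 1 fell among the (+)/(+) clones, so the groups overlapped. Means were 1092 ± 368 and 707 ± 128 (SD, n = 3 each), with a log2 difference of -0.57 (standard error 0.24, 95% interval -1.11 to -0.03, adjusted p = 0.21 from limma). The second probe set, 1421749_at, was dim and again highest in clones 2 and 3, with signals of 37.1, 124 and 126 in the (−)/(+) clones, followed by 63.1, 60.8 and 56.5 in the (+)/(+) clones. Its log2 difference was -0.42 (95% interval -1.20 to 0.36, adjusted p = 0.52 from limma). Without clone 1 the brighter probe set passed, with a log2 difference of -0.88 (adjusted p = 0.022 from limma, where 4.27% of all tested probe sets passed in that fit), and the dim one did not (-0.89, adjusted p = 0.052). Leaving out any other clone gave adjusted p between 0.24 and 0.44 for the brighter probe set. It also passed with arrayWeights, which gives clones unequal weight (log2 difference -0.72, adjusted p = 0.036, where 11.2% of all tested probe sets passed).

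Lin28b, the paralogue that can hold let-7 primary transcripts in the nucleus, was near the bottom of the measured range. Its only probe set, 1430803_at (chromosome 10, chr10:45376617-45486314), had signals of 20.5, 33.4 and 13.8 in the (−)/(+) clones, followed by 32.0, 26.0 and 15.8 in the (+)/(+) clones. The groups overlapped, and the probe set was not tested because its mean lay below the median of all probe sets, which corresponds to a signal of 67.2. An exact permutation test on the log2 values gave p = 0.8 (two-sided, n = 3 each), where 0.1 is the smallest p that 3 clones against 3 allow.

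Trim71, also called Lin41, is a let-7 target with a TRIM-NHL fold that represses mRNAs in mouse embryonic stem cells. On chromosome 9 (chr9:114511268-114564369), it was measured by 1453599_at at 3777, 3843 and 4555 in the (−)/(+) clones, followed by 3275, 3464 and 3518 in the (+)/(+) clones. All (+)/(+) clones lay below all (−)/(+) clones by a small margin. Of the 16 tested member probe sets 2 had groups that did not overlap, both lower, against 27.1% of all tested probe sets (16.6% lower). The log2 difference was -0.24 (standard error 0.10, 95% interval -0.47 to -0.01, adjusted p = 0.21 from limma). It was -0.08 (adjusted p = 0.70) after scaling to a common median and -0.16 (adjusted p = 0.51) without clone 3. The other probe set, 1456673_at, had 1474, 1474 and 1775 in the (−)/(+) clones, followed by 1383, 1533 and 1453 in the (+)/(+) clones. Here the groups overlapped, with a log2 difference of -0.11 (adjusted p = 0.63 from limma) that was 0.05 after scaling to a common median. In both probe sets clone 3 had the highest signal and clone 4 the lowest.

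L1td1, an RNA-binding protein derived from a LINE-1 open reading frame and found with LIN28 in human pluripotent cells, did not separate the groups. Its probe set 1457314_at (chromosome 4, chr4:98726754-98738486) had signals of 8075, 9053 and 9318 in the (−)/(+) clones, followed by 9716, 6990 and 7577 in the (+)/(+) clones. The highest and the lowest clone both belonged to the (+)/(+) group. The log2 difference was -0.13 (95% interval -0.41 to 0.14, adjusted p = 0.56 from limma) and 0.02 after scaling to a common median, so no direction can be given.

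Esrp1, which sets epithelial splice forms such as that of the FGF receptor Fgfr2, had the only brightest probe set with a mean above that of the (−)/(+) clones among the tested genes. On chromosome 4 (chr4:11331933-11386783), 1454681_at had signals of 227, 158 and 233 in the (−)/(+) clones, followed by 298, 154 and 277 in the (+)/(+) clones. Clone 2 and clone 5 were low in their groups, and the groups overlapped. The log2 difference was 0.19 (standard error 0.25, 95% interval -0.36 to 0.74, adjusted p = 0.69 from limma). Leaving out 1 clone gave values from 0.03, without clone 2 or clone 4, to 0.47 without clone 5 (0.08 without clone 6), and arrayWeights gave 0.08. Splice forms themselves were not analysed here.

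Igf2bp1, which binds mRNAs such as those of Igf2 and Actb through its KH domains, came nearest to the threshold. Its brightest probe set, 1455223_at, had signals of 3636, 3381 and 3738 in the (−)/(+) clones, followed by 2892, 2766 and 2728 in the (+)/(+) clones. The groups did not overlap, and each was narrow, with means of 3585 ± 184 and 2795 ± 85.9 (SD, n = 3 each). The log2 difference was -0.36 (standard error 0.09, 95% interval -0.56 to -0.15, adjusted p = 0.067 from limma), and leaving out 1 clone moved it to between -0.40 and -0.33 with adjusted p between 0.084 and 0.23. The call was made with arrayWeights (log2 difference -0.40, adjusted p = 0.014), where 11.2% of all tested probe sets passed, and after scaling to a common median the difference was -0.20 (adjusted p = 0.30). The other 3 probe sets overlapped between the groups, with log2 differences of -0.28 for 1418761_at, -0.34 for 1449210_at and -0.11 for 1459825_x_at (adjusted p = 0.25, 0.35 and 0.78 from limma). In these 3 clone 1 was the highest, at 3323, 1890 and 871, while clone 2, at 2381, 1102 and 489, fell among or below the (+)/(+) clones.

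The genes around Igf2bp1 on chromosome 11 (chr11:95957163-96005944) were raised in clone 1. Over the 20 nearest tested genes with a mean signal above 500, 10 on each side, the median log2 shift of clone 1 from the median of the 6 clones was 0.19, against 0.22 for Igf2bp1 itself. In the other 5 clones the neighbours lay between -0.04 and 0.02. Clones 2 and 3 also lay above the median for Igf2bp1, by 0.11 and 0.26, where their neighbours were at 0.00 and 0.02. Without clone 1 the log2 difference of 1455223_at was -0.35 (adjusted p = 0.095 from limma), close to the value with all clones, and that of 1459825_x_at was 0.05.

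Igf2bp3, the paralogue known as an oncofetal mRNA-binding protein, differed among the (−)/(+) clones far more than among the (+)/(+) clones. It lies on chromosome 6 (chr6:49085218-49215469). Its brightest probe set, 1422610_s_at, had signals of 1278 in clone 1, 1662 in clone 2 and 830 in clone 3, and of 1118, 1011 and 1029 in clones 4, 5 and 6. Clone 2 was the highest and clone 3 the lowest in all 6 probe sets, so the (+)/(+) clones lay within the range of the (−)/(+) clones throughout. The coefficient of variation over the 6 probe sets was 29.6% to 41.6% in the (−)/(+) group and 3.79% to 8.42% in the (+)/(+) group. The tested probe sets of Lin28a, Trim71 and Igf2bp1 also varied more among the (−)/(+) clones, up to 53.0% against 5.53% for Lin28a 1421749_at. Those of L1td1 and Esrp1 varied more among the (+)/(+) clones. The difference in spread was not tested, and how common it is over all probe sets was not counted. Log2 differences ran from -0.29 for 1422611_s_at to 0.08 for 1453957_a_at (adjusted p between 0.43 and 0.93 from limma). They followed the clone left out: for 1422610_s_at the value was -0.20 with all clones, 0.03 without clone 2 and -0.46 without clone 3 (adjusted p = 0.95 and 0.18).

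**Figure D3:**
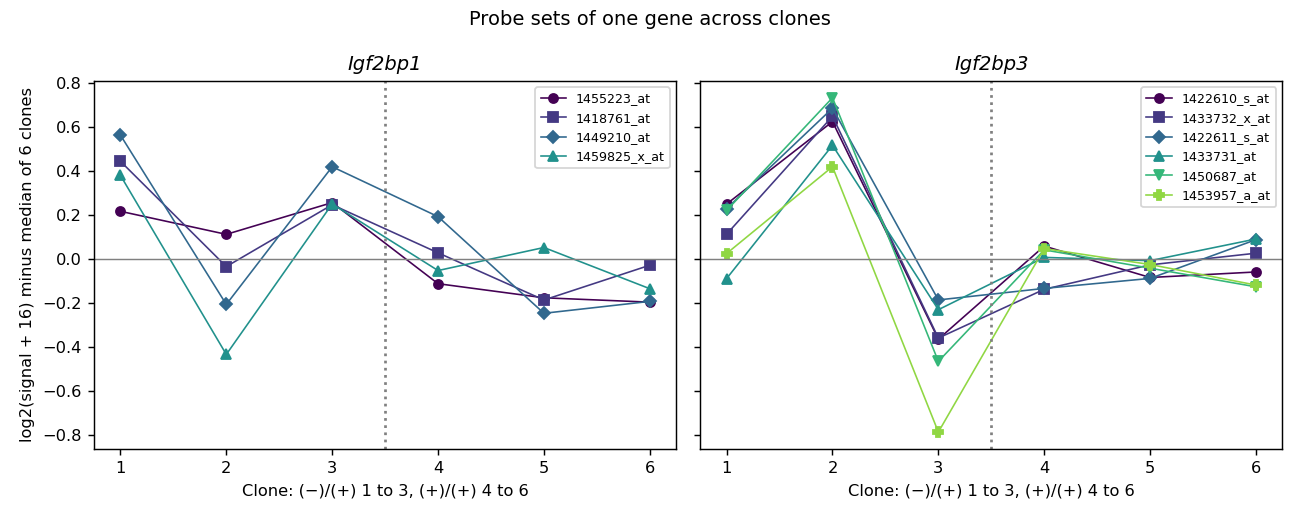
Log2(signal + 16) of each probe set minus its median over the 6 clones (y axis) by clone (x axis), for the 4 probe sets of Igf2bp1 and the 6 of Igf2bp3, with a dotted line between the (−)/(+) and (+)/(+) clones. Clone 2 is the highest and clone 3 the lowest in all 6 probe sets of Igf2bp3, and clone 1 is the highest in 3 of the 4 of Igf2bp1.

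The genes around Igf2bp3 were low in clone 3 as well. Among its 20 nearest tested genes, from Braf to Plekha8 (chr6:39603231-54645823), the median shift was -0.52 in clone 3, beside -0.36 for Igf2bp3. In clone 2 the neighbours were at -0.02 while Igf2bp3 was at 0.62, and in clone 1 they were at -0.03 while Igf2bp3 was at 0.25. Igf2bp3 was thus low together with its neighbours in clone 3 and high without them in clone 2. For Lin28a, Trim71, L1td1 and Esrp1 no neighbour median went beyond 0.10 in either direction in any clone, whereas Lin28a was at 0.80 in clone 2 and 0.67 in clone 3.

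**Figure D4:**
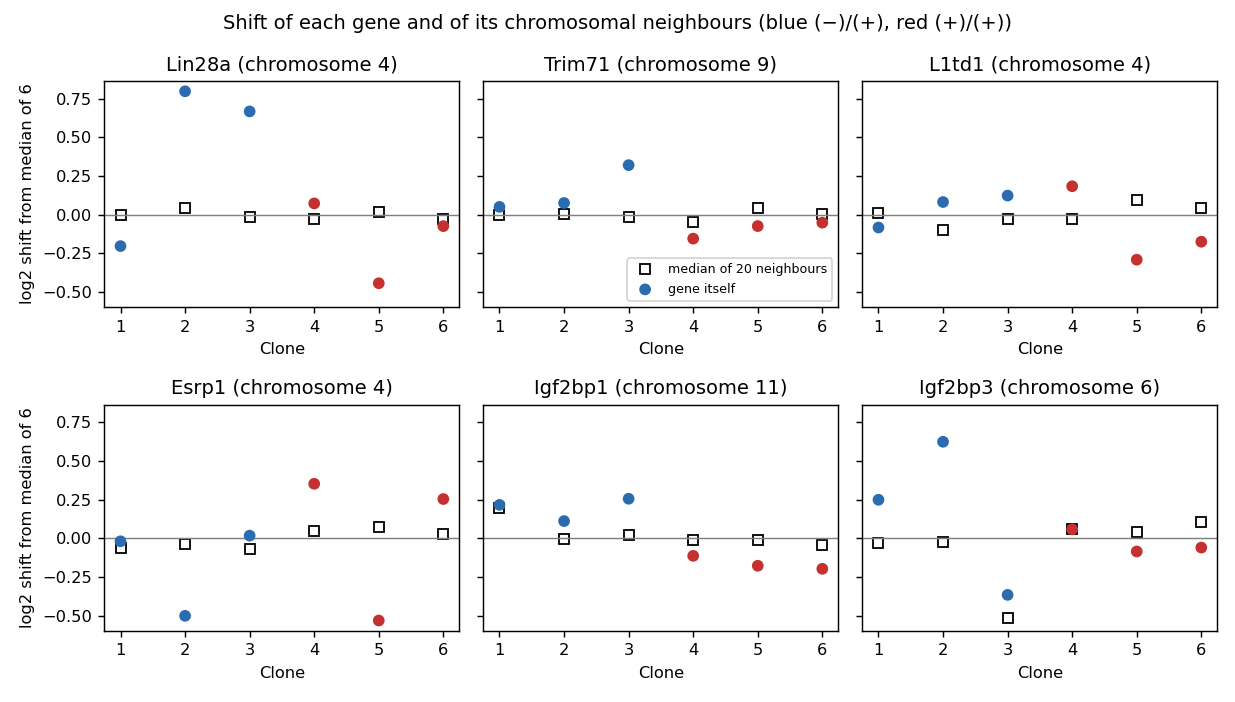
Departure of each clone, in log2 units, from the 6-clone median (y axis) for 6 genes (filled points, blue for (−)/(+) and red for (+)/(+) clones) and the median of the 20 nearest tested genes on the same chromosome (open squares), by clone (x axis). The squares leave 0 for Igf2bp1 in clone 1 (0.19) and for Igf2bp3 in clone 3 (-0.52).

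Transcripts that let-7 miRNAs repress were examined because Lin28 acts on let-7. Whether their levels follow Lin28a or let-7 in these clones was not tested. Of 21 such genes 17 had a probe set of their own and 16 were tested. In the (+)/(+) iPSCs 4 fell and 0 rose, beside 1.41% lower and 1.55% higher among all 11177 tested genes, and the median log2 difference was -0.15 against -0.05 for all tested genes. The 4 were Cdk6, Ccnd2, Ccnd1 and Hmga2, and the other 12 did not pass.
Cdk6, a G1 kinase, had signals of 408, 538 and 588 in the (−)/(+) clones, followed by 246, 260 and 231 in the (+)/(+) clones, and fell by 1.00 log2 units (limma, adjusted p = 0.016). Its cyclin partner Ccnd2 had 618, 884 and 995 against 421, 401 and 432, and fell by 0.94 (adjusted p = 0.023). Ccnd1 had 2645, 3066 and 4067 against 1954, 1907 and 1698, and fell by 0.79 (adjusted p = 0.027). For Hmga2, an architectural chromatin protein of embryonic cells and a classical let-7 target, signals were 974, 872 and 1230 against 636, 615 and 543, and it fell by 0.75 (adjusted p = 0.031). In all 4 genes every (+)/(+) clone lay below every (−)/(+) clone, as in 16.6% of all tested probe sets. The 4 were named because they passed on these same values, so this separation adds no support. The other tested probe sets of these genes were lower too, by 0.68 to 1.11 on the log2 scale, and all but 1 of Ccnd2 (adjusted p = 0.095) passed.
Clone 1, low for Lin28a, was the lowest (−)/(+) clone for Cdk6, Ccnd2 and Ccnd1 but not for Hmga2. It was also the lowest (−)/(+) clone for the 4 fibroblast markers named below, and a link between Lin28a and these genes was not tested. Among the let-7 targets that did not pass, log2 differences were -0.12 for Mycn (95% interval -0.46 to 0.21), -0.12 for Nras (-0.42 to 0.18) and 0.01 for Myc (-0.66 to 0.68). With clone 1 or clone 2 left out 4 and 3 of the genes still passed, with clone 4 left out 1, and with clone 3, 5 or 6 left out 0.

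Fibroblast markers, which stand for the starting cells and the feeder cells, were lower in the same (+)/(+) clones. Of 19 tested genes in that list 10 were lower and 0 higher, beside 1.41% lower and 1.55% higher among all tested genes. The summed signal of its 23 measured genes ran from 32081 to 42801 in the (−)/(+) clones and from 21004 to 24614 in the (+)/(+) clones. Col1a2, Timp3, Bgn and Vim, the first 4 by adjusted p, had log2 differences of -1.58, -1.37, -1.08 and -0.87 (adjusted p = 0.0043, 0.011, 0.011 and 0.011). Without clone 1 these were -1.71, -1.53, -1.18 and -1.01, lower than without clone 2 or clone 3, since clone 1 was the lowest (−)/(+) clone for each. No marker was listed at 0, although Col1a1, Twist2, Lum and Tagln were too dim to be tested. Leaving out clone 1 gave 12 lower genes and leaving out clone 2 gave 7, while 4, 4, 5 and 1 passed when clones 3, 4, 5 and 6 were left out in turn. The part of fibroblast RNA in the values of Igf2bp1, Lin28a and the let-7 targets was not tested. All 11 pluripotent markers checked were bright enough to be tested, and their summed signal was 123904 to 131380 in the (−)/(+) and 138284 to 146783 in the (+)/(+) clones. In limma 1 gene was higher (Fbxo15), beside 1.55% among all tested genes. At an unadjusted p under 0.05 there were 4 of the 11, against 21.2% of all tested probe sets.

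Genes that make, regulate or destroy let-7 and other miRNAs were examined as a list of 20, which holds RNA-binding proteins beside enzymes. Of these 19 were tested, 1 rose and 2 fell, beside 1.55% higher and 1.41% lower among all tested genes. Drosha, the nuclear RNase that cuts the primary transcript, had signals of 7376, 8583 and 8139 in the (−)/(+) clones, followed by 5890, 6026 and 5724 in the (+)/(+) clones, and fell by 0.45 log2 units (limma, adjusted p = 0.030). Ago2, the slicing Argonaute, had 2138, 2281 and 2375 against 1526, 1789 and 1519, and fell by 0.49 (adjusted p = 0.044). The RNA-binding protein gene Syncrip had 2703, 2950 and 3317 against 4712, 3811 and 4137, and rose by 0.49 (adjusted p = 0.049). The other probe sets of Drosha and Ago2 were lower by 0.29 to 0.46 without passing, and those of Syncrip lay between -0.11 and 0.25, so the rise rests on 1 of its 5 probe sets. The uridylyl transferases that work with Lin28a, Tut4 and Tut7, had log2 differences of -0.04 (95% interval -0.29 to 0.21) and -0.09 (-0.37 to 0.19), Dis3l2, which degrades uridylated let-7 precursors, had -0.06 (-0.58 to 0.46), and Dicer1 had -0.08 (-0.40 to 0.24). Both lower calls were also made without clone 1 and neither without any 1 of the other clones. After scaling to a common median Drosha and Ago2 no longer passed, at log2 differences of -0.29 and -0.33. The higher call was lost without any 1 of the 6 clones.

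**Figure D5:**
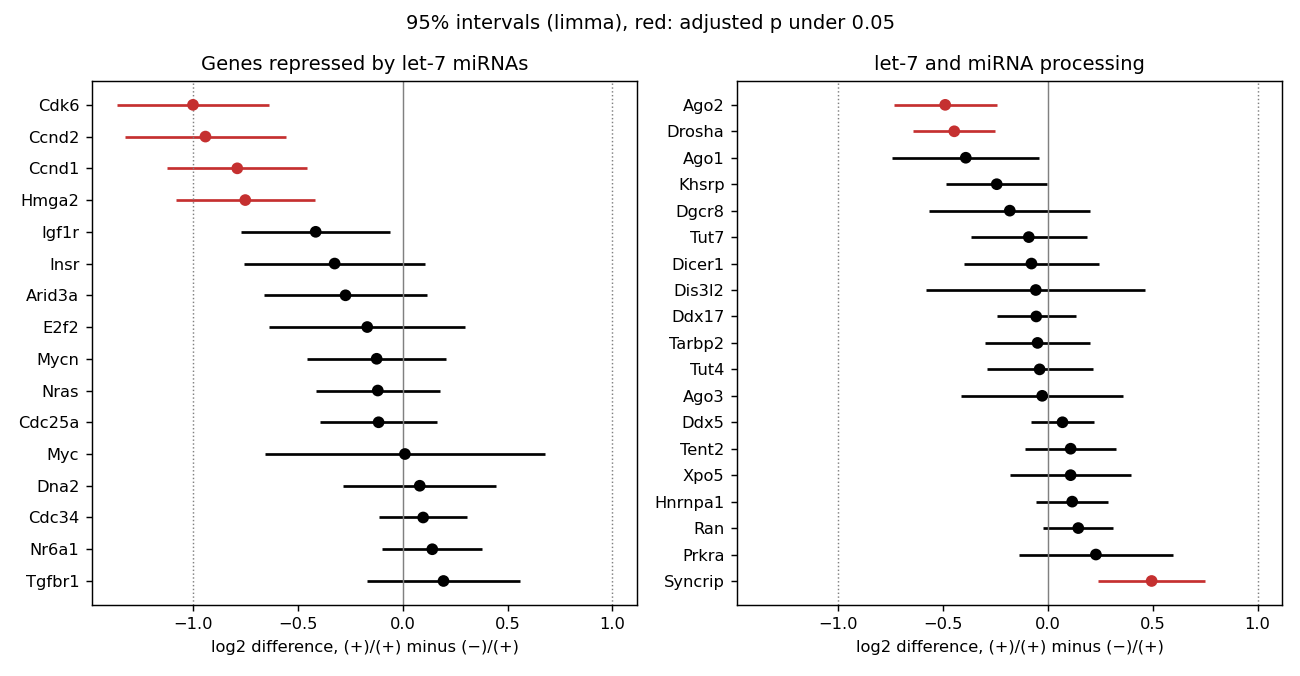
Log2 difference, (+)/(+) minus (−)/(+), with the 95% interval from limma (x axis, 3 clones per group), for the 16 tested genes repressed by let-7 and the 19 tested genes of miRNA processing, with dotted lines at a 2-fold change and in red the genes with an adjusted p under 0.05. Cdk6, Ccnd2, Ccnd1 and Hmga2 are the let-7 targets in red, and Ago2, Drosha and Syncrip the processing genes.

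Transcripts bound by Trim71 did not pass. All 5 were tested, 0 were higher or lower, also at an unadjusted p under 0.05 (limma). Their median log2 difference was -0.26, against -0.05 for all tested genes. Cdkn1a, the cell cycle inhibitor p21 that Trim71 represses in mouse embryonic stem cells, had signals of 2054, 1711 and 1541 in the (−)/(+) clones, followed by 1523, 1535 and 1607 in the (+)/(+) clones (log2 difference -0.17, adjusted p = 0.45 from limma). Egr1, an immediate early transcription factor, and Mbnl1, a splicing factor, had log2 differences of -0.16 and -0.27 (adjusted p = 0.33 and 0.26).

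Of 10 transcripts bound by Igf2bp proteins 7 were tested, 1 rose and 2 fell, beside 1.55% higher and 1.41% lower among all tested genes. Igf2, the growth factor gene that names the family, had signals of 153, 148 and 114 in the (−)/(+) clones, followed by 266, 261 and 226 in the (+)/(+) clones, a rise of 0.80 on the log2 scale (adjusted p = 0.040 from limma) and thus opposite in direction to the lower mean of Igf2bp1. The hyaluronan receptor gene Cd44 had 849, 1020 and 1433 against 601, 596 and 572, and fell by 0.85 (adjusted p = 0.035). Its other 2 probe sets also passed. Btrc, an F-box protein gene, had 170, 316 and 291 against 125, 124 and 94.0, and fell by 1.04 (adjusted p = 0.044), while its other tested probe set had a log2 difference of 0.00. Actb had -0.08 to 0.31 as its 95% interval. Under quantile normalization or scaling to a common median neither Cd44 nor Btrc passed, at log2 differences of -0.81 and -0.69 for Cd44 (adjusted p = 0.052 and 0.051) and of -0.93 and -0.90 for Btrc (adjusted p = 0.079 and 0.053). Igf2, Cd44 and Btrc kept their calls without clone 1 and lost them without any 1 of the other clones.

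Lists around Esrp1 held no call. Of 14 splicing regulators and 14 tested epithelial genes 0 were higher or lower in limma. At an unadjusted p under 0.05 there were 1 and 3, against 21.2% of all tested probe sets. Lists count 1 probe set a gene and that share counts every tested probe set, so the units differ. The 3 epithelial genes were Krt18 and Krt8, at log2 differences of 0.90 and 0.57 (adjusted p = 0.079 and 0.091), and Epcam, which was lower. Srsf1, Srsf3 and Celf1, the brightest splicing regulators, had log2 differences of 0.16, 0.19 and 0.02 (adjusted p = 0.36, 0.33 and 0.89). Cdh1, the E-cadherin gene, had signals of 9176, 6415 and 7930 in the (−)/(+) clones, followed by 12103, 8727 and 8025 in the (+)/(+) clones (log2 difference 0.29, adjusted p = 0.34). Clone 2 was low for both Cdh1 and Esrp1. Epcam and Tjp1 had -0.32 and -0.07 (adjusted p = 0.23 and 0.70). Among 15 tested RNA-binding proteins of mRNA stability and translation 0 passed (limma), with 3 at an unadjusted p under 0.05. There Ybx1, Caprin1 and Pabpc1 had log2 differences of 0.06, 0.04 and 0.08 (adjusted p = 0.70, 0.80 and 0.58).

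Among the other marker lists, 2-cell-like genes were higher and the rest gave 1 call. Of 9 tested markers of primed epiblast, a later state of pluripotency, 0 were higher and 1 was lower in limma (Cdh2, which fell by 1.11 on the log2 scale). Among all tested genes 1.55% were higher and 1.41% lower. The median log2 difference of the 9 was 0.15, against -0.05 for all tested genes. At an unadjusted p under 0.05 there were 2, against 21.2% of all tested probe sets. The other tested probe set of Cdh2 had a log2 difference of -0.64 (adjusted p = 0.20), and the call was lost in 5 of 14 alternatives, among them those without clone 3, 5 or 6. Of 7 primitive endoderm and 6 neural progenitor markers 0 passed, with 1 each at an unadjusted p under 0.05. The brightest of these were Lamb1, Col4a1 and Pdgfra (log2 differences -0.37, 0.04 and -0.52) and Tubb3, Neurog1 and Msi1 (0.17, 0.14 and -0.27). Of 12 genes in the 2-cell-like list 5 had a probe set of their own, and Zscan4c, Zscan4d, Zscan4f and Dux were among those without. All 5 were tested and were higher, beside 1.55% higher among all tested genes, with a median log2 difference of 2.04. Among them were Usp17la, Tcstv1, Tcstv3 and Zfp352 at 2.04, 2.39, 2.56 and 1.79. A rise of such genes had already been reported from these same arrays, so the share higher is no independent finding. Leaving out 1 clone gave 3 to 5 higher. Zfp352 lost its call in 9 of 15 alternatives, and Usp17la, Tcstv1 and Tcstv3 only with the methods' test after adjustment. So adjusted, that test called 0 of all tested probe sets higher, against 1572 before adjustment. The loss is therefore not particular to these genes. The paper mentions no such adjustment.

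The genes with the most similar profiles over the 6 arrays are given as a description, since with 6 points many genes correlate closely. For Lin28a they were Jup, Pdgfa and Eif4e2 (Pearson's r = 0.996, 0.995 and 0.992), and 222 of 11176 genes exceeded 0.9. For Igf2bp1 they were Slf2, Dpp7 and Lhfpl2 (0.997, 0.996 and 0.994), with 371 above 0.9. For Trim71 they were Gm3715, Eya1 and Ddr2 (0.993, 0.987 and 0.987), and for L1td1 Ybx3, Imp4 and Pomk (0.994, 0.982 and 0.978). For Esrp1 they were Blvrb, Pop4 and Dnajc6 (0.980, 0.971 and 0.967), and for Igf2bp3 Dhx16, Pdk1 and Nrd1 (0.976, 0.965 and 0.961), with 48 and 46 genes above 0.9. All arrays share 1 scaling, so points are not independent of array-wide differences.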

How the data were processed

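RNA of 6 iPSC clones was labelled with biotin by the authors and hybridised to 1-colour Affymetrix Mouse Genome arrays, 1 array per clone. The authors quantified probe sets with MAS 5.0 and deposited signal intensities on a linear scale, and in these values each array has a mean of 500 without its highest and lowest 2% of values. Array medians were 74.2 to 75.7 in the (−)/(+) and 64.1 to 70.2 in the (+)/(+) clones. Presence calls and scan batches were not used here, and a batch that followed the groups cannot be told apart from them. The number of arrays limits the precision.
Of 45101 probe sets 64 controls were left out. Among the others the platform table pairs 34945 with a single gene symbol and 932 with more than 1, and it leaves 9160 unnamed. Gene positions came from RefSeq on GRCm38.p6. Values were taken as log2(signal + 16), and the 22518 probe sets whose mean exceeded the overall median entered the test in R 4.3.3 with limma 3.58.1 (eBayes with trend, group alone), Benjamini-Hochberg adjusted over all tested. Lists used the brightest probe set of each gene. Clones are the replicates, and p-values measure the spread between clones.
The members and the gene lists were chosen with earlier results of these data known. Named are all members, of each list up to 4 called genes or, with none called, up to 3 of the brightest, and the 3 genes most correlated with each tested member. Mycn, Nras, Myc, Tut4, Tut7, Dis3l2, Dicer1, Actb, Krt8 and Krt18 were added after their values were seen. As alternatives, each clone was left out in turn, arrays were quantile normalized or brought to a common median, 1 or 64 replaced the pseudocount, the filter was dropped or set at a mean of 500, and arrayWeights, eBayes without its trend, the methods' t-test or gene means over probe sets were used. Figures were drawn with matplotlib 3.10.9.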

Additional observations from a re-analysis of the deposited data

How the results depend on the processing

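The count of 0 higher members was the same under every alternative run. The count of 0 lower members became 2 with arrayWeights (Lin28a and Igf2bp1), 1 without clone 1 (Lin28a), between 0 and 1 over the 6 fits that leave out 1 clone, and 1 for the methods' t-test before adjustment. When probe sets were averaged per gene 0 members passed in either direction. Of 234 single member values recomputed, 216 kept their direction and their side of the threshold, 3 newly passed and 15 changed sign without passing. Over all tested probe sets, 305 were higher and 398 lower. These counts were 1015 and 1512 with arrayWeights, 87 and 178 when eBayes had no trend, 101 and 120 when nothing was filtered, and 917 and 238 after scaling to a common median (79.4% of calls higher, against 43.4%). There were 255 lower after quantile normalization and 165 lower above a mean signal of 500. The methods' t-test gave 0 and 1 after adjustment and 1572 and 2427 before it. Leaving out each clone gave 27 to 446 higher and 25 to 515 lower. The causes were not tested. Among the let-7 targets, Cdk6 lost its call in 4 of 14 alternatives, Ccnd1 in 7 of 15, and Ccnd2 and Hmga2 in 8 of 15 each. For Hmga2 these include scaling to a common median, at a log2 difference of -0.60 (adjusted p = 0.052). Signals near that of Lin28b limit what can be seen, as it lies under the signal of 67.2 that the filter corresponds to.
No paired analysis was made, since the labels link no (−)/(+) clone to a (+)/(+) clone.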
